A study of Mus musculus with 15 samples.

Results

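The 10 genes studied stand for the successive steps of autophagy and for the lysosome, and were followed in mouse hippocampus: Ulk1, Becn1, Atg5, Atg7, Map1lc3a, Map1lc3b, Sqstm1, Lamp1, Ctsd and Tfeb. The members were given as a list of names, and every array probe that the platform annotation assigns to them was taken. Of 15 such probes 14 had values, and the exception was feature 39272 of Atg7, so all 10 genes were measured, among 16401 genes and 34479 probes with values in all. Becn1, Map1lc3b, Ulk1 and Ctsd had 2 probes with values each and the other 6 genes had 1.

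The study set exercised SAMP8 mice against sedentary SAMP8 mice, and sedentary SAMP8 mice against sedentary SAMR1 mice, with 5 one-colour arrays in each of the 3 groups. SAMP8 is a senescence-accelerated inbred strain, used as a model of early ageing of the brain, and SAMR1 is the related strain that ages more normally. The animals were adult females, the tissue was the whole hippocampus frozen after death, and no transgene or drug is named. The labels call the arrays of a group biological replicates. The sources used here give no ages, no kind or length of exercise and no statement of whether a replicate was 1 animal or a pool, and p-values measure the spread between these arrays.

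Autophagy encloses cytoplasm, protein aggregates and organelles in a double membrane, the autophagosome, which then fuses with the lysosome, where hydrolases digest the content. ULK1 kinase starts the process, Beclin 1 (Becn1) and its lipid kinase prepare the membrane, ATG7 and ATG5 drive the attachment of LC3 proteins (Map1lc3a, Map1lc3b) to it, and p62 (Sqstm1) ties cargo to LC3. The factor TFEB switches on lysosomal and autophagy genes. Neurons do not divide and depend on this route to clear damaged proteins, but the flux through it is set largely at the protein level, which mRNA intensities do not measure.

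The arrays had median intensities of 207.75 to 208.67, as the deposited values had already been brought to a common scale. Intensities below 39.17, the 5th percentile, were set to that floor before log2 was taken. Hippocampal neuron markers averaged 13.35 ± 0.13 on the log2 scale in exercised SAMP8, 13.21 ± 0.17 in sedentary SAMP8 and 13.16 ± 0.15 in SAMR1 (SD, n = 5 each, 10 of 10 markers measured). Neuronal transcripts were thus bright in every group, and no other brain region was measured for comparison. The mean of 10 meningeal and fibroblast markers was 9.77 ± 0.42 in exercised SAMP8, 10.38 ± 0.38 in sedentary SAMP8 and 9.38 ± 0.61 in SAMR1. The mean of 9 pericyte and smooth muscle markers was 9.71 ± 0.14, 9.82 ± 0.19 and 9.08 ± 0.31 in the same order. The mean of 8 measured choroid plexus and ependymal markers of 10 listed was 8.36 ± 1.01, 8.59 ± 0.87 and 9.34 ± 0.55. In sedentary SAMP8 against SAMR1 4 of the 10 meningeal and 6 of the 9 pericyte markers rose. In exercised SAMP8 against SAMR1 2 of the 9 pericyte markers rose and 0 of 10 meningeal markers were called, in exercised against sedentary SAMP8 none of either list was called, and 0 of 8 choroid plexus markers were called in any comparison. No gene of these lists was at the floor on every array. In whole tissue, fewer cells of a type and less RNA per cell cannot be told apart.

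None of the 10 autophagy and lysosome genes differed between any pair of groups at an adjusted p below 0.05, here termed called (limma over 16401 genes, Benjamini-Hochberg). In sedentary SAMP8 against SAMR1 0 of 10 members were called and 0 had an unadjusted p below 0.05, while 2.63% of all genes were called and 11.2% had such a p. With same-numbered sedentary arrays treated as pairs, 0 of 10 members were called and 1, Map1lc3a, had an unadjusted p below 0.05, while 3.95% of all genes were called. All 5 pairs went one way for 2 of 10 members (Map1lc3a, lower in SAMP8, and Atg7, higher in SAMP8) and for 17.1% of all genes. In exercised against sedentary SAMP8 the member counts were again 0 and 0, while 0% of all genes were called and 3.49% had an unadjusted p below 0.05. In exercised SAMP8 against SAMR1 0 members were called and 1, Ulk1, had an unadjusted p below 0.05, while 3.6% of all genes were called and 15.9% had such a p. The last comparison shares its arrays with the other two. It has no exercised SAMR1 group, so strain and exercise change together in it and cannot be told apart. At the level of single probes 0 of 14 member probes were called in any comparison, while 2.26%, 0% and 3.25% of all probes were.

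The intervals set bounds on the differences. The 95% interval lay within 0.5 on the log2 scale, which is 1.41-fold, for 9 of 10 members in sedentary SAMP8 against SAMR1, for 10 of 10 in exercised against sedentary SAMP8 and for 9 of 10 in exercised SAMP8 against SAMR1. The widest bounds were 1.51-fold (Map1lc3a), 1.38-fold (Atg5) and 1.53-fold (Map1lc3a) in those comparisons. The median absolute log2 difference of the members was 0.088, 0.060 and 0.087, beside 0.098, 0.078 and 0.11 over all genes. In no comparison were the arrays of the groups fully apart for any member, while 4.19%, 0.439% and 4.9% of all genes had groups without overlap.

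**Figure D1:**
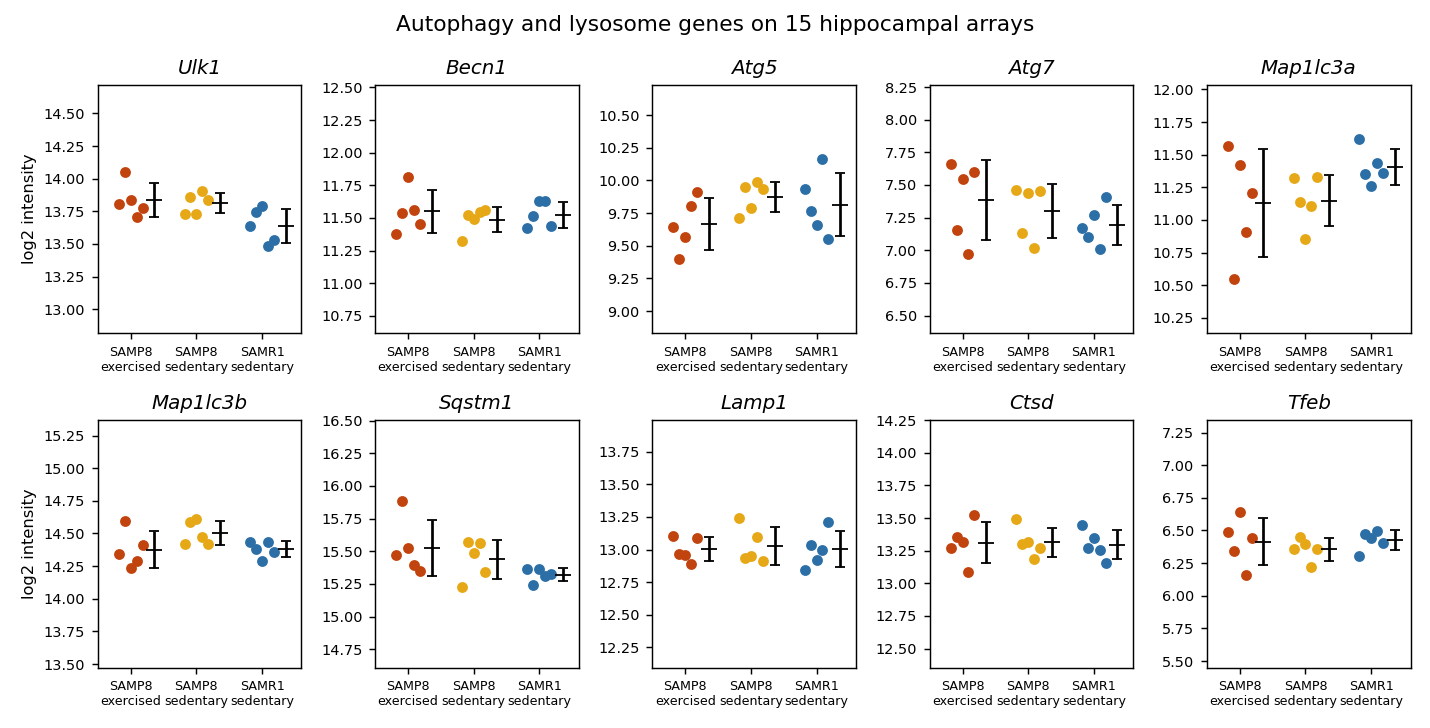
Log2 intensity of the 10 autophagy and lysosome genes, 1 panel per gene with its brighter probe, for exercised SAMP8, sedentary SAMP8 and sedentary SAMR1 (points, 1 per array; bars, mean ± SD, n = 5). Every vertical axis spans the same number of log2 units, and in each panel the 3 groups overlap; Map1lc3a shows the widest scatter.

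Ulk1, the kinase that starts autophagosome formation, had the smallest adjusted p of the members in each comparison with SAMR1 without pairs. Its brighter probe read 14313, 16988, 14594, 13398 and 14001 on the exercised SAMP8 arrays, 13617, 14832, 13579, 15377 and 14622 on the sedentary SAMP8 arrays and 12763, 13712, 14181, 11450 and 11858 on the SAMR1 arrays. The 3 lowest values were SAMR1 arrays, and the other 2 SAMR1 arrays lay within the SAMP8 range. The log2 difference was 0.20 ± 0.085 (SE) in exercised SAMP8 against SAMR1, with a 95% interval of 0.016 to 0.38 (adjusted p = 0.264). It was 0.17 ± 0.085 in sedentary SAMP8 against SAMR1 (95% interval -0.0063 to 0.36, adjusted p = 0.473) and 0.022 ± 0.085 in exercised against sedentary SAMP8 (adjusted p = 1). The second probe of Ulk1 gave 0.11 ± 0.12, 0.13 ± 0.12 and -0.017 ± 0.12 for the same comparisons, none of them called.

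Becn1, which activates the lipid kinase of early autophagosomes, read 2664 to 3606 in exercised SAMP8, 2558 to 3015 in sedentary SAMP8 and 2742 to 3167 in SAMR1. The ranges lay over each other. On the log2 scale sedentary SAMP8 differed from SAMR1 by -0.039 ± 0.089 (adjusted p = 0.943) and exercised from sedentary SAMP8 by 0.064 ± 0.089 (adjusted p = 1). The second Becn1 probe, annotated to another transcript record, read only 30 to 61, around the floor, and carries little information on the gene.

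Atg5, which joins ATG12 to form part of the enzyme that attaches LC3 to lipid, had the largest absolute difference of the members between exercised and sedentary SAMP8. It read 801, 675, 760, 896 and 961 in exercised SAMP8, 840, 989, 887, 1015 and 976 in sedentary SAMP8 and 981, 872, 809, 1148 and 749 in SAMR1. The 3 lowest SAMP8 values were exercised arrays, yet 2 exercised arrays lay inside the sedentary SAMP8 range and SAMR1 spanned nearly all of it. The log2 difference was -0.21 ± 0.12 in exercised against sedentary SAMP8 (95% interval -0.46 to 0.045, adjusted p = 1), and 0.059 ± 0.12 in sedentary SAMP8 against SAMR1 (adjusted p = 0.933).

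Atg7, the activating enzyme of both conjugation pathways, was dim, at 125 to 203 in exercised SAMP8, 130 to 176 in sedentary SAMP8 and 129 to 170 in SAMR1. The exercised arrays held both the highest and the lowest value. On the log2 scale sedentary SAMP8 differed from SAMR1 by 0.11 ± 0.14 (adjusted p = 0.877, or 0.462 with pairs) and exercised from sedentary SAMP8 by 0.085 ± 0.14 (adjusted p = 1).

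Map1lc3a and Map1lc3b encode LC3A and LC3B, the ubiquitin-like proteins that coat the autophagosome. Map1lc3a read 3038, 1498, 2748, 1918 and 2357 in exercised SAMP8, 2553, 2247, 1855, 2201 and 2579 in sedentary SAMP8 and 3147, 2610, 2449, 2774 and 2634 in SAMR1. SAMR1 held 4 of its 5 arrays above every sedentary SAMP8 array, while the exercised arrays ran across the range of both other groups. The log2 difference was -0.26 ± 0.16 in sedentary SAMP8 against SAMR1 (95% interval -0.60 to 0.082, adjusted p = 0.629), -0.019 ± 0.16 in exercised against sedentary SAMP8 (adjusted p = 1) and -0.28 ± 0.16 in exercised SAMP8 against SAMR1 (adjusted p = 0.444). With same-numbered sedentary arrays treated as pairs, the difference of sedentary SAMP8 from SAMR1 was -0.26 ± 0.074 (adjusted p = 0.119), so it was not called there either. With each array's means of choroid plexus and meningeal markers as covariates it was 0.046 ± 0.25 (adjusted p = 0.995). The meningeal mean itself differed between these groups, so that fit cannot separate strain from tissue content, and its standard error was larger.

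Map1lc3b was among the steadiest transcripts, with a within-group SD of 0.10 on the log2 scale that only 4.43% of all genes undercut. Its brighter probe read 19265 to 24798 in exercised SAMP8, 21881 to 24988 in sedentary SAMP8 and 19973 to 22123 in SAMR1. The sedentary SAMP8 arrays stood toward the top, with overlap on both sides. Log2 differences were 0.12 ± 0.080 in sedentary SAMP8 against SAMR1 (adjusted p = 0.654) and -0.13 ± 0.080 in exercised against sedentary SAMP8 (adjusted p = 1), against -0.0013 ± 0.083 and -0.0088 ± 0.083 by its second probe.

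Sqstm1 encodes p62, the cargo receptor that itself is degraded by autophagy. It read 45532, 60641, 47274, 43019 and 41757 in exercised SAMP8, 38368, 48640, 45902, 48368 and 41545 in sedentary SAMP8 and 42101, 38743, 42225, 40674 and 40987 in SAMR1. These were near the top of the scale, where the highest value of the table was 65480. The SAMR1 arrays were close together, and each SAMP8 group reached above them with overlap below. The log2 difference was 0.12 ± 0.10 in sedentary SAMP8 against SAMR1 (adjusted p = 0.779), 0.089 ± 0.10 in exercised against sedentary SAMP8 (adjusted p = 1) and 0.21 ± 0.10 in exercised SAMP8 against SAMR1 (95% interval -0.0083 to 0.42, adjusted p = 0.341).

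The lysosomal members Lamp1 and Ctsd differed little. Lamp1, an abundant glycoprotein of the lysosomal membrane, read 7600 to 8819 in exercised SAMP8, 7694 to 9697 in sedentary SAMP8 and 7359 to 9490 in SAMR1. Its log2 difference was 0.026 ± 0.089 in sedentary SAMP8 against SAMR1 (95% interval -0.16 to 0.21) and -0.024 ± 0.089 in exercised against sedentary SAMP8 (-0.21 to 0.17). Ctsd, the aspartic protease cathepsin D, read 8693 to 11752 in exercised SAMP8, 9313 to 11553 in sedentary SAMP8 and 9118 to 11183 in SAMR1. The 3 ranges nearly coincided. Its log2 difference was 0.019 ± 0.091 in sedentary SAMP8 against SAMR1 and -0.0037 ± 0.091 in exercised against sedentary SAMP8. The second Ctsd probe gave 0.080 ± 0.12 and -0.0049 ± 0.12.

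Tfeb, the transcription factor that governs lysosomal genes, gave a dim signal of 71 to 100 in exercised SAMP8, 74 to 88 in sedentary SAMP8 and 79 to 90 in SAMR1. This is close above the floor, where a difference in intensity can understate one in RNA. Sedentary SAMP8 differed from SAMR1 by -0.069 ± 0.088 on the log2 scale (adjusted p = 0.876) and exercised from sedentary SAMP8 by 0.057 ± 0.088 (adjusted p = 1). TFEB is regulated mainly by its movement into the nucleus, which these arrays do not record.

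**Figure D2:**
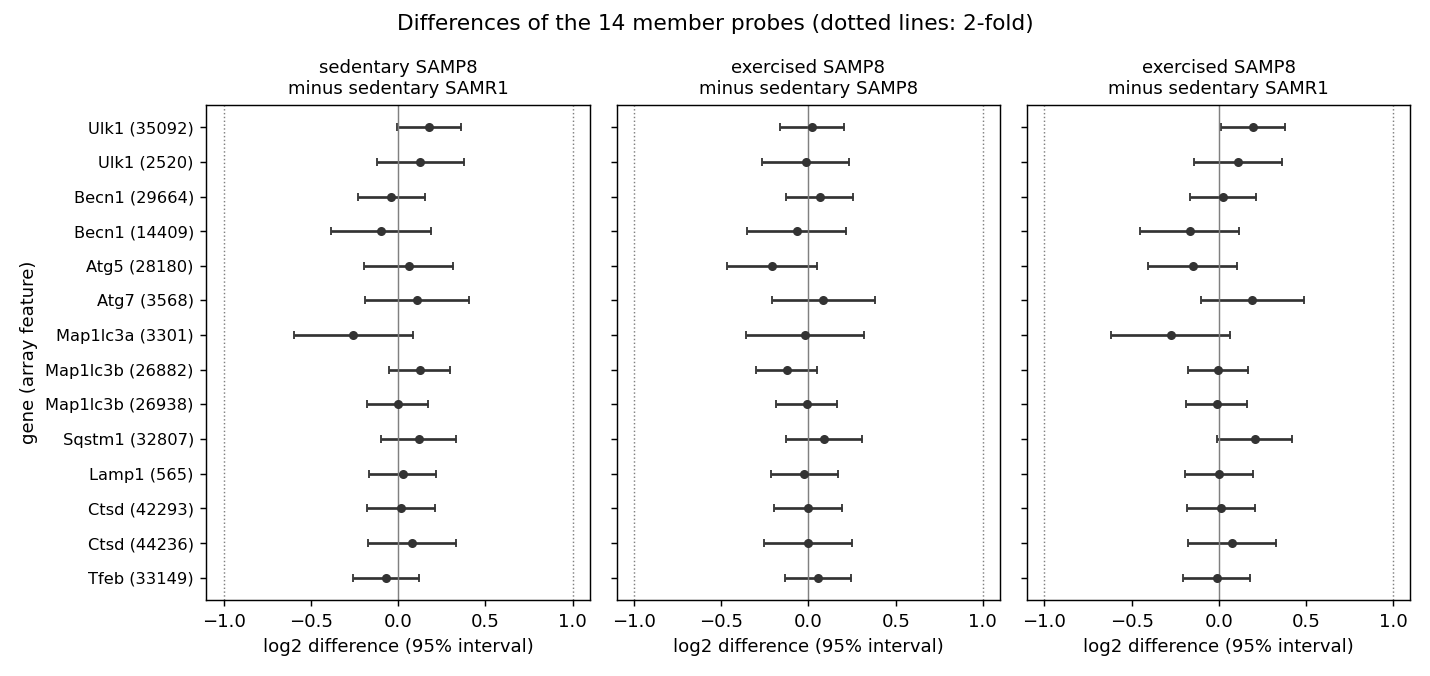
Log2 difference of each of the 14 member probes (points) with its 95% interval (bars) in sedentary SAMP8 against SAMR1, exercised against sedentary SAMP8 and exercised SAMP8 against SAMR1. All intervals lie inside the dotted lines at 2-fold, and the brighter Ulk1 probe in exercised SAMP8 against SAMR1 is the one whose interval leaves out 0.

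The order of the 3 group means was no more settled than the differences. In 6 of 10 members the mean of exercised SAMP8 exceeded that of SAMR1, in 5 of 10 it exceeded that of sedentary SAMP8, and in 7 of 10 sedentary SAMP8 exceeded SAMR1, beside member medians of 0.0081, 0.0092 and 0.042 on the log2 scale. Over all genes these medians were 0.017, 0.011 and 0.0029. For none of the 10 members did groups next to each other in this order pass the test.

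Most members varied less within groups than the median gene, but Map1lc3a, Atg7 and Atg5 did not. Their SDs exceeded those of 80.7%, 68.8% and 52.2% of all genes. The median within-group SD of the members was 0.13 on the log2 scale, beside 0.19 over all genes. The member SDs ran between 0.10 for Map1lc3b and 0.27 for Map1lc3a. The exercised SAMP8 array of replicate 2 was the highest of the 15 for Sqstm1 and Ulk1 and the lowest for Map1lc3a and Atg5, so it was extreme for 4 of 10 members. Over all genes it was extreme for 12.9%. The exercised array of replicate 4 was the lowest for Atg7, Ctsd and Tfeb, and over all genes it was the lowest for 7.02%. Exercised replicate 3 and sedentary SAMP8 replicate 1 were each extreme for 3 members as well, beside 14.4% and 11.2% of all genes.

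The promoters of several members carry the E-box letters CACGTG, the core of the element that TFEB and its relatives bind at lysosomal genes. RefSeq promoters (build GRCm38.p6, 250 bases before to 50 after each start) were in the table for 8 of the 10 members, all but Becn1 and Map1lc3a. The motif, which reads the same on either strand, was found in 4 of these 8 genes, and in 4 of their 10 promoters, beside 7.15% of 32851 mouse promoters. The Lamp1 promoter held 4 copies within 75 bases, and 0.024% of promoters held 4 or more. The Ctsd promoter held 2, and those of Atg5 and Atg7 held 1 each. The longer letters GTCACGTG, on either strand and overlapping the core, were found in Lamp1, Ctsd and Atg7, beside 2.25% of promoters. These stretches are shown because TFEB is known to bind such letters at lysosomal genes, and capitals mark the motif.
Lamp1, chr8:13159086-13159160, plus strand: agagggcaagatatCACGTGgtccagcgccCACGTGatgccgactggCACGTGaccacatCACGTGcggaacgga
Ctsd, chr7:142388048-142388077, minus strand: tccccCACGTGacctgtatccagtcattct
Ctsd, chr7:142387908-142387937, minus strand: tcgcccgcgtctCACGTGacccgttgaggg
Atg7, chr6:114670952-114670981, plus strand: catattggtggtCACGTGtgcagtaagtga
Atg5, chr10:44268313-44268342, plus strand: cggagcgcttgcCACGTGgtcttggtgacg
A match of letters is a description and shows no binding. The log2 difference of the 4 genes in exercised against sedentary SAMP8 was -0.024 for Lamp1, -0.0037 for Ctsd, 0.085 for Atg7 and -0.21 for Atg5, none called.

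Beyond the members, 12 lists of other autophagy and lysosome genes held 166 names, of which 154 were measured and 12 are not analysed here. In sedentary SAMP8 against SAMR1 2 of the 154 rose and 1 fell, beside 1.46% of all genes that rose and 1.16% that fell. The 2 that rose, Manba and Neu1, are lysosomal hydrolases that trim sugars from glycoproteins, and they were 2 of the 28 measured genes of the list of hydrolases and their helper proteins. The 1 that fell, Atp6v1g2, is a neuronal subunit of the proton pump that acidifies lysosomes and synaptic vesicles, and it was 1 of 17 measured pump genes. The median log2 difference of the 154 genes was 0.013, beside 0.0029 over all genes. By the brightest probe of each gene, 0 genes were called in the other 10 lists: the ULK complex, the PI3-kinase complexes, the conjugation enzymes, the other ATG8 proteins, the membrane growth proteins, the cargo receptors, the fusion machinery, the lysosomal membrane proteins, the cathepsins, and the MiT/TFE factors with the mTORC1 branch that controls them. Of the 154 genes 13 had an unadjusted p below 0.05, 9 of them with a higher level in sedentary SAMP8. Over all genes 1838 (11.2%) had such a p, 1023 of them with a higher level.

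At the level of single probes, 6 of the 326 probes of these genes were called in sedentary SAMP8 against SAMR1, 0 in exercised against sedentary SAMP8 and 10 in exercised SAMP8 against SAMR1, beside 2.26%, 0% and 3.25% of all probes. In sedentary SAMP8 against SAMR1 3 of these were not the brightest of their gene. The first, of Pik3c3, the lipid kinase of the PI3-kinase complexes, was at 0.48 ± 0.099 on the log2 scale (adjusted p = 0.0112), while its brightest probe was at 0.32 ± 0.12 and not called (adjusted p = 0.26). The second, of Atg4d, a protease that processes ATG8 proteins, was at -0.64 ± 0.15 (adjusted p = 0.0292), while its brightest probe was at -0.029. The third was a probe of Vamp8, a membrane fusion protein of autophagosomes and lysosomes, at -0.74 ± 0.16 (adjusted p = 0.0158). In exercised SAMP8 against SAMR1 the same Pik3c3 probe was called (0.45 ± 0.099, adjusted p = 0.0156) and its brightest probe was not (0.40 ± 0.12, adjusted p = 0.0832).

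Manba, the lysosomal beta-mannosidase, read 456, 419, 433, 407 and 408 in sedentary SAMP8 and 281, 227, 252, 263 and 233 in SAMR1. Every SAMP8 array stood above every SAMR1 array. The log2 difference was 0.76 ± 0.10 (adjusted p = 0.00016), a 1.69-fold rise. Neu1, the lysosomal sialidase, read by its brighter probe 5962, 6104, 7162, 6363 and 6176 in sedentary SAMP8 and 3808, 3912, 4751, 4431 and 3667 in SAMR1, again without overlap. Its log2 difference by that probe was 0.63 ± 0.093 (adjusted p = 0.000534). The call rests on this probe: the second Neu1 probe was at -0.18 ± 0.085 (adjusted p = 0.45), and the average of both was at 0.22 and not called (adjusted p = 0.213). With the marker covariates the brighter probe was at 0.44 and not called (adjusted p = 0.305).

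Atp6v1g2 read 2539, 3259, 3096, 3029 and 3255 in sedentary SAMP8 and 3753, 4378, 4349, 4113 and 3649 in SAMR1. All SAMP8 arrays were below all SAMR1 arrays. It fell by 0.42 ± 0.10 on the log2 scale (adjusted p = 0.0372), and the call was lost in 10 of the 15 fits that left out 1 array (adjusted p up to 0.101), namely sedentary SAMP8 replicates 1 to 5, exercised replicate 2 or SAMR1 replicates 1 to 4. With same-numbered sedentary arrays as pairs, 6 of the 154 genes were called, beside 3.95% of all genes. The added ones were Vamp8 (-0.60, adjusted p = 0.027), Vps41 (0.41, adjusted p = 0.0169), a tether of late endosomes and lysosomes, and Laptm4b (-0.44, adjusted p = 0.0404), a lysosomal membrane protein.

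In exercised against sedentary SAMP8 0 of the 154 genes were called by limma, and 5 of 154 (3.25%) had an unadjusted p below 0.05, beside 573 of all genes (3.49%). The 5 were Laptm5, Wipi1, Lipa, Rragc and Snap29, each with a lower level in exercised SAMP8, as 62% of those 573 genes had. The median of the 154 genes was 0.014 on the log2 scale, beside 0.011 over all genes. Laptm5, a lysosomal membrane protein known from blood-lineage cells, read 311, 236, 417, 335 and 231 in exercised SAMP8, 505, 565, 335, 527 and 505 in sedentary SAMP8 and 606, 528, 535, 598 and 578 in SAMR1. The exercised arrays were below 4 of the 5 sedentary SAMP8 arrays and below every SAMR1 array. The log2 difference from sedentary SAMP8 was -0.69 ± 0.16 (95% interval -1.03 to -0.35, adjusted p = 1). The mean of 10 measured microglial markers of 12 listed ranged over 9.64 to 9.74 in exercised SAMP8, 9.66 to 9.72 in sedentary SAMP8 and 9.51 to 9.80 in SAMR1, with 0 of 10 called in any comparison. Wipi1, which reads the lipid mark on growing autophagosomes, differed by -0.33 ± 0.12 (95% interval -0.58 to -0.087, adjusted p = 1). Lipa, the lysosomal acid lipase, differed by -0.26 ± 0.092 (95% interval -0.45 to -0.064, adjusted p = 1).

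The remaining lists held no called gene in exercised against sedentary SAMP8. The lowest p among the ULK complex was that of Prkaa1, a catalytic subunit of the energy sensor AMPK that activates ULK1, at 0.12 ± 0.089. Atg14, which directs the PI3-kinase to autophagosomes, was at 0.11 ± 0.072. Gabarap, of the other ATG8 family branch, was at -0.12 ± 0.078. Of 17 proton pump genes 13 had a positive difference, with a median of 0.079 on the log2 scale, and Atp6ap2 had the lowest p, at 0.17 ± 0.095. Of the 13 genes of the list of lysosomal proteases, which also holds the protease inhibitor Cst3, 2 had a positive difference (Ctsb at 0.043 and Cst3 at 0.0092). The median was -0.049, and Ctsh had the lowest p, at -0.21 ± 0.11. No gene of either list was called, and over all genes the median was 0.011. Over all genes 8853 of 16401 had a positive difference. So did 14 of 28 genes of the list of hydrolases and their helper proteins, and 9 of 16 lysosomal membrane genes.

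In exercised SAMP8 against SAMR1 7 of the 154 genes were called by their brightest probe, 4 with a positive and 3 with a negative difference, beside 1.75% of all genes called higher and 1.85% called lower. The median log2 difference of the 154 was 0.0086, beside 0.017 over all genes. Neu1 rose by 0.79 ± 0.093 on the log2 scale by its brighter probe (adjusted p = 4.72e-05) and Manba by 0.73 ± 0.10 (adjusted p = 0.000227). Vps41 rose by 0.45 ± 0.11 (adjusted p = 0.0229), and the brightest probe of Wdfy3, a large scaffold for the autophagy of aggregates, was at 0.40 ± 0.087 (adjusted p = 0.0142), with other probes of the gene on the other side of 0. Laptm5 fell by 0.93 ± 0.16 (adjusted p = 0.00221), Vamp8 fell by 0.79 ± 0.20 (adjusted p = 0.0367) and Wipi1 fell by 0.53 ± 0.12 (adjusted p = 0.0142). Exercised values of Manba were 462, 415, 449, 322 and 455, and of Neu1 6784, 7552, 7701, 7395 and 6122, all above the SAMR1 values given for these genes. This comparison uses the same SAMR1 arrays as that of the sedentary strains, so the 2 comparisons are not independent. All SAMR1 mice were sedentary, so a difference here cannot be assigned to strain or to exercise.

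**Figure D3:**
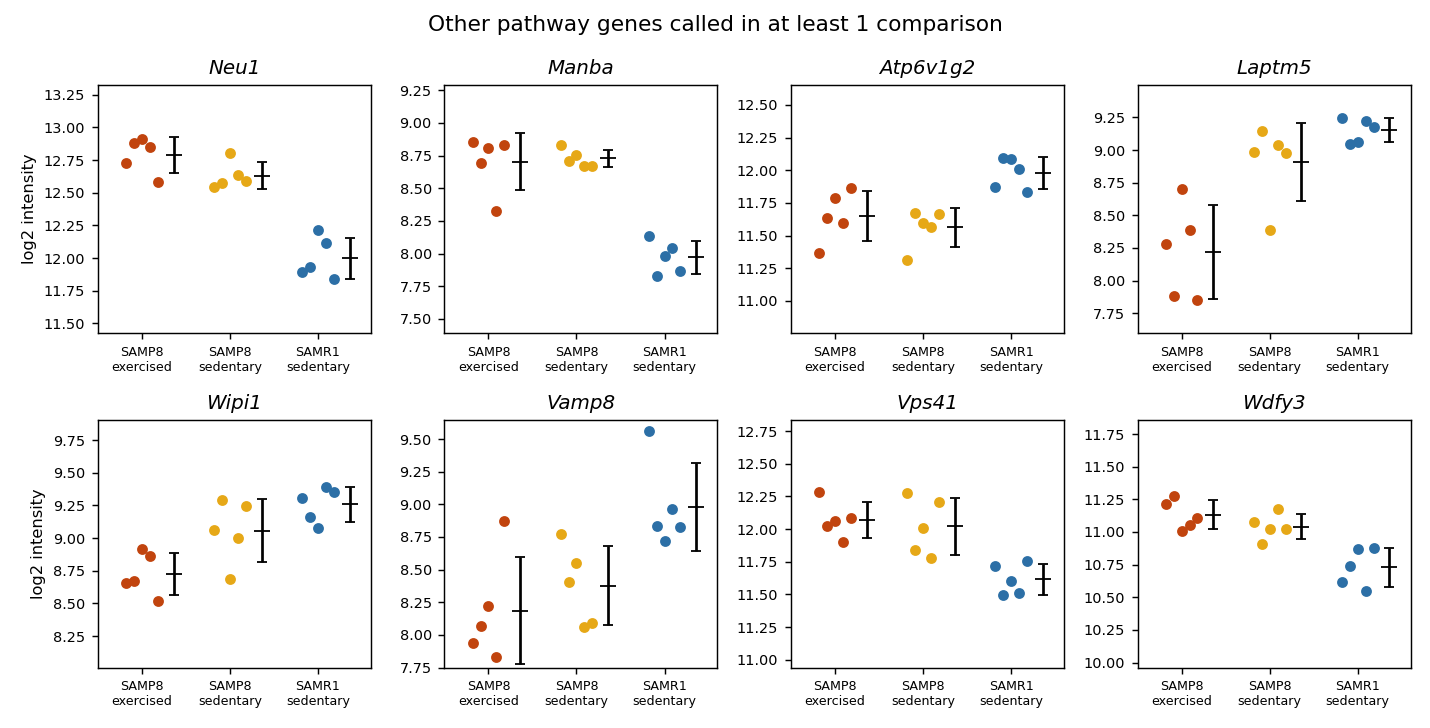
Log2 intensity of the 8 other pathway genes called in at least 1 comparison, for exercised SAMP8, sedentary SAMP8 and sedentary SAMR1 (points, 1 per array; bars, mean ± SD, n = 5). By the brightest probe of each gene, which is plotted, Neu1 and Manba stand higher in both SAMP8 groups than in SAMR1. Laptm5, Wipi1 and Vamp8 have their lowest mean in exercised SAMP8, and none of them was called against sedentary SAMP8.

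When 1 array was left out, the calls for Vamp8 and Vps41 in exercised SAMP8 against SAMR1 were less steady than those of the hydrolases. This ranking does not cover agreement between the probes of a gene. Vamp8 read 245, 269, 298, 228 and 469 in exercised SAMP8 and 758, 455, 422, 498 and 453 in SAMR1, with 1 exercised array inside the SAMR1 range. Its call against SAMR1 was lost in 9 of the 15 fits that left out 1 array (adjusted p up to 0.103), namely exercised replicates 1 to 4, sedentary SAMP8 replicate 2 or SAMR1 replicate 1, 2, 4 or 5. That of Vps41 was lost without SAMR1 replicate 2, 3 or 4 or without exercised replicate 1 (adjusted p up to 0.0654). The calls of Neu1, Manba, Laptm5, Wipi1 and Wdfy3 against SAMR1 were kept without any 1 array.

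**Figure D4:**
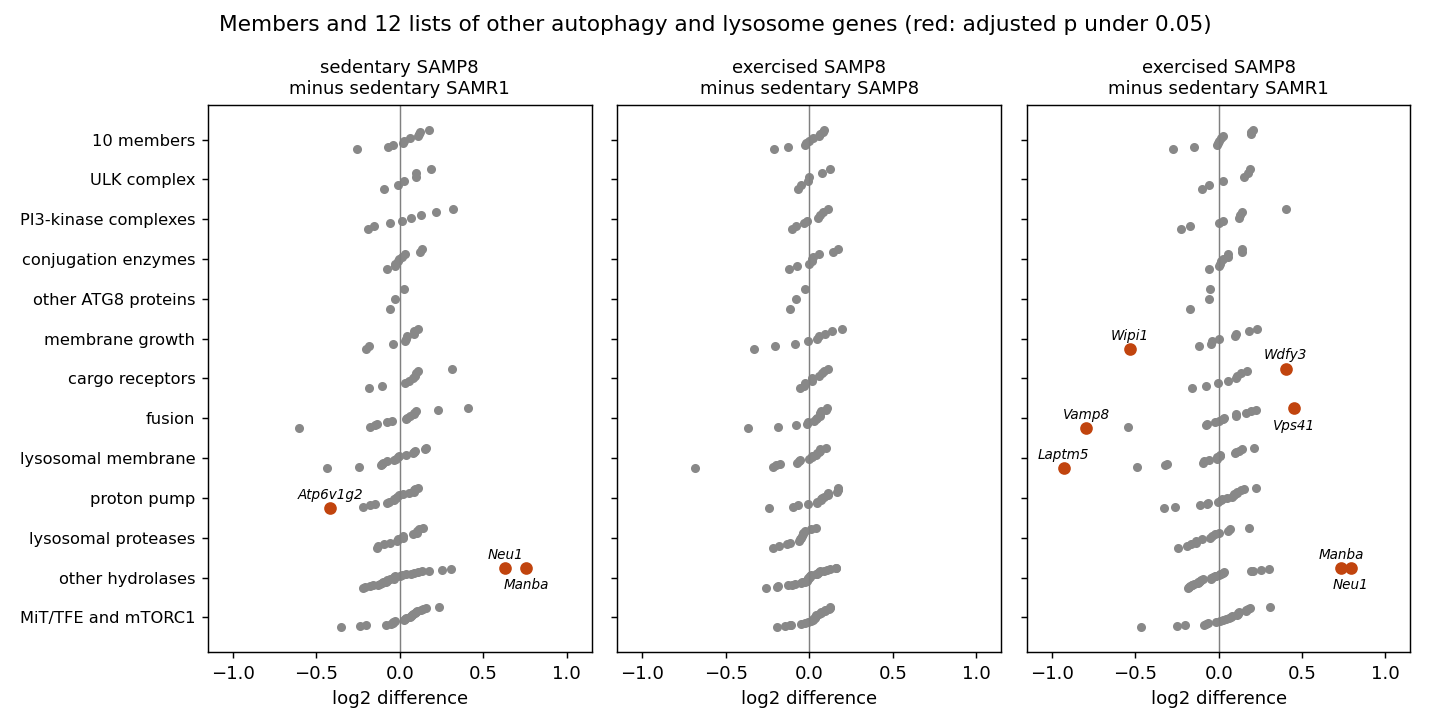
Log2 differences of the 10 members and of the 154 measured genes of 12 other autophagy and lysosome lists (1 point per gene, 1 row per list) in the 3 comparisons. Red points are called genes: 3 in sedentary SAMP8 against SAMR1, 0 in exercised against sedentary SAMP8 and 7 in exercised SAMP8 against SAMR1, and no member is among them.

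Different probes of the called genes did not always tell the same story. The second Neu1 probe, opposite in sign to the brighter one in sedentary SAMP8 against SAMR1, gave -0.024 ± 0.085 in exercised SAMP8 against SAMR1. The second Manba probe gave 0.17 ± 0.11 in sedentary SAMP8 against SAMR1 (adjusted p = 0.687) and 0.089 ± 0.11 in exercised SAMP8 against SAMR1. With all probes of a gene averaged, Manba was still called in sedentary SAMP8 against SAMR1 (0.46, adjusted p = 0.013) and Neu1 was called in exercised SAMP8 against SAMR1 (0.38, adjusted p = 0.00974).

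Of the 4 Wdfy3 probes 2 gave a negative difference in exercised SAMP8 against SAMR1, down to -0.79 ± 0.26, and the average of its probes was -0.070 (adjusted p = 0.875), so no direction of the gene can be given. The second probes of Laptm5, Wipi1, Vamp8 and Atp6v1g2 had the sign of the brighter ones. That of Vamp8, called in sedentary SAMP8 against SAMR1, was also called in exercised SAMP8 against SAMR1 (-0.78 ± 0.16, adjusted p = 0.00938).

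**Figure D5:**
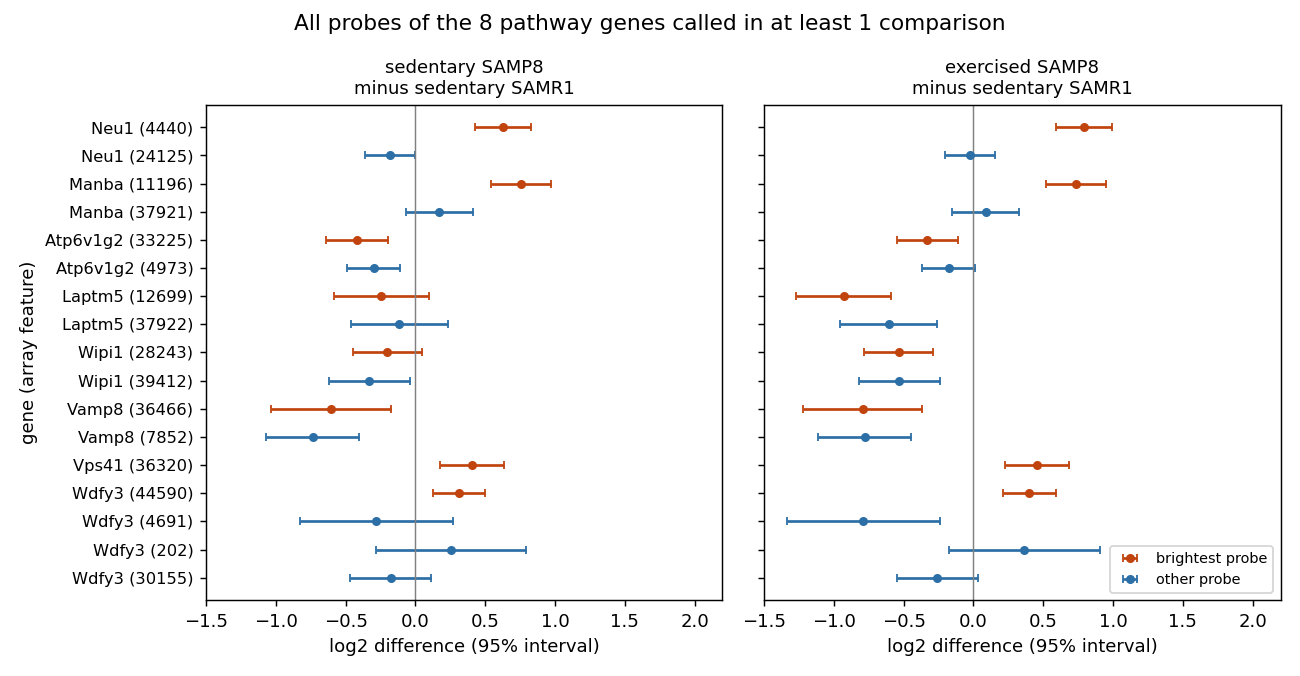
Log2 difference with 95% interval for every probe of the 8 called pathway genes in sedentary SAMP8 against SAMR1 and in exercised SAMP8 against SAMR1 (red, the brightest probe of the gene; blue, other probes). The Neu1, Manba and Wdfy3 probes disagree within the gene, and those of Vamp8, Wipi1, Laptm5 and Atp6v1g2 lie on the same side of 0.

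When each array's means of the choroid plexus markers and of the meningeal markers entered the model as covariates, 1 of the 154 pathway genes was called in sedentary SAMP8 against SAMR1, Manba (0.75, adjusted p = 0.0356), and 2 were called in exercised SAMP8 against SAMR1, Manba (0.78, adjusted p = 0.00319) and Neu1 (0.68, adjusted p = 0.00511). In that fit Atp6v1g2 was at -0.48 ± 0.16 in sedentary SAMP8 against SAMR1 (adjusted p = 0.339) and Vps41 at 0.52 ± 0.14 in exercised SAMP8 against SAMR1 (adjusted p = 0.104). Both differences were at least as large as without the covariates, and their standard errors were larger. Those of Laptm5 (-0.73), Wipi1 (-0.40), Vamp8 (-0.45) and Wdfy3 (0.31) in exercised SAMP8 against SAMR1 were smaller and not called. The number of members called was 0 in all 3 comparisons there too. Fewer of all genes were also called in that fit in both comparisons with SAMR1, with the counts given below. The meningeal mean itself differed between sedentary SAMP8 and SAMR1 (10.38 and 9.38), so strain and tissue content cannot be told apart in this fit.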

How the data were processed

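RNA of whole hippocampus was converted to Cy3-labelled cRNA and hybridised to 15 one-colour arrays, per the labels' protocols. The authors deposited 1 table of linear intensity values, 1 column per array, and limma was used, per the submitters' processing notes. No source used here names the scanner, the background step or the filter. The columns share nearly the same sorted values, as normalization between arrays leaves them. Of 45220 rows, 10741 (23.8%) had no value. Symbols came from the platform annotation, and 27968 of 34479 features with values had 1 symbol.

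Intensities were floored at the 5th percentile (39.17) and log2-transformed, and the brightest of a gene's probes on average stood for the gene. One limma model (limma 3.58.1, R 4.3.3) with 3 group means covered all 15 arrays, with Benjamini-Hochberg adjustment over 16401 genes, or over 34479 features where probes are given. The number of arrays limits the precision. The members and lists were chosen with earlier results of these data known. Named genes are all members, pathway genes that were called, the gene with the lowest p of a list, and neighbours of called genes, chosen after their values were seen. Genes near the top of the scale are named as well. Replicate numbers are shared between groups. Deviations from group means correlated at 0.226 to 0.522 between all 5 same-numbered sedentary SAMP8 and SAMR1 arrays, which were therefore taken as pairs in a further fit. The range was -0.098 to 0.348 between exercised and sedentary SAMP8, and 0.012 to 0.374 between exercised SAMP8 and SAMR1. Alternatives covered the floor, a filter on dim probes, averaged probes, the samples fitted, the block, the variance model, array weights, cyclic loess, marker covariates and each array left out. The model was tested on simulated data. Promoters came from RefSeq tables (GRCm38.p6).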

Additional observations from a re-analysis of the deposited data

Results flagged for a closer look

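Of 66 sets of 5 arrays (the members' probes and the called pathway genes in each group), 3 had 1 array whose gap to the nearest other array exceeded the critical share of 0.71 of the group's range, and chance alone gives about 5% of such sets. The brighter Becn1 probe read 2558 in sedentary SAMP8 replicate 1, against 2878 on the nearest array of that group (share 0.716). Without that array the Becn1 difference of sedentary SAMP8 from SAMR1 was 0.0022 on the log2 scale, beside -0.039 with it, and neither was called. Vamp8 read 758 in SAMR1 replicate 1, against 498 on the nearest array (share 0.716), and without that array the difference of exercised SAMP8 from SAMR1 was -0.65 and lost its call (adjusted p = 0.103). Laptm5 read 335 in sedentary SAMP8 replicate 3, against 505 on the nearest array (share 0.785), and without that array the difference of exercised from sedentary SAMP8 was -0.81 (adjusted p = 0.569). The causes were not tested.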

How the results depend on the processing

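The count of called members was 0 in every alternative run in all 3 comparisons, and the smallest adjusted p of any member was 0.119 (Map1lc3a, with the replicate block). Of 258 alternative values per comparison, the sign of the main value was kept in 249 for sedentary SAMP8 against SAMR1, 244 for exercised against sedentary SAMP8 and 235 for exercised SAMP8 against SAMR1. Several alternatives could not change a difference: the compared groups alone, the replicate block, the variance model and leaving out an array of the group not compared. The counts of kept signs therefore overstate how far the signs were put to the test. With the replicate block over the compared groups, 648 genes and 6 other pathway genes were called in sedentary SAMP8 against SAMR1. Without it these counts were 431 and 3. The counts in exercised SAMP8 against SAMR1 were 323 and 4 with it and 590 and 7 without it. Deviations of same-numbered arrays correlated at 0.012 to 0.374 in that comparison. Wipi1 (-0.53, adjusted p = 0.0551), Wdfy3 (0.40, adjusted p = 0.102) and Vamp8 (-0.79, adjusted p = 0.134) lost their calls there with the block. With the marker covariates 140 of 16401 genes and 1 other pathway gene were called in sedentary SAMP8 against SAMR1. The counts in exercised SAMP8 against SAMR1 were 256 and 2 in that fit. With averaged probes 5 other pathway genes were called in sedentary SAMP8 against SAMR1, and Wdfy3 turned to -0.0695 in exercised SAMP8 against SAMR1. The count of genes called in exercised against sedentary SAMP8 ranged from 0 to 1 when 1 array was left out, and was 1 without exercised replicate 3. The cause was not tested where none is shown by the setting itself. Tfeb, Atg7 and the second Becn1 probe were dim, which limits what their intensities can resolve, and Sqstm1 was near the top of the scale. Cst3 and Gabarapl1, of the other ATG8 proteins, were closer still to the top, which limits their differences as well.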

Other observations

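Some called pathway genes lay beside other called genes, and whether this exceeds the share of called genes was not tested. Each gene had 10 neighbours, and 2.63% of all genes were called in sedentary SAMP8 against SAMR1. Within 5 tested genes on either side, Atg7 was the only member with called neighbours. These were Tamm41 and Syn2, at -0.76 (adjusted p = 5.67e-05) and 0.44 (adjusted p = 0.0115) on the log2 scale in sedentary SAMP8 against SAMR1, and Atg7 itself was at 0.11 and not called. The neighbours of Vamp8 included Capg, at -1.51 (adjusted p = 7.15e-06), and Usp39, at -0.43 (adjusted p = 0.00683). Beside Manba stood Ddit4l, at 1.13 (adjusted p = 8.62e-05), and beside Vps41 stood Stard3nl, at -0.74 (adjusted p = 0.000134). Neu1 and Atp6v1g2 both lie on chromosome 17 with 28 tested genes between them. Atp6v1g2 had H2-Q4 among its neighbours, at -0.88 (adjusted p = 0.000436), and Neu1 had 1110038B12Rik, at -0.84 (adjusted p = 0.000306). In exercised SAMP8 against SAMR1, where 3.6% of all genes were called, 3 further neighbours were called. These were Vgll4 beside Atg7 (-0.56, adjusted p = 0.0129), Amph beside Vps41 (0.45, adjusted p = 0.0161) and Ehmt2 beside Neu1 (0.47, adjusted p = 0.0226). Laptm5, Wipi1 and Wdfy3 had 0 called neighbours. The letters CACGTG were in the promoters of 0 of the 7 called pathway genes with a promoter in the table, beside 7.15% of mouse promoters. So few genes cannot show a difference from that share.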
